A study of Mus musculus with 25 samples.

Results

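The comparison is that of tumour cells against the stromal cells of the same liver tumours, over all genes of the raw count table. The members are 8 of the 25 libraries of the series, a tumour cell library and a stromal cell library from each of 4 mice, paired by the mouse number in the sample titles. BMEL (bipotential mouse embryonic liver) cells are a hepatic progenitor line from mice described as C57B/6_C3H. They had been given H-Ras G12V with a fluorescent reporter and were grown as tumours in the liver of athymic nude mice (Crl:NU(NCr)-Foxn1nu), with no treatment. Tumours were dissociated and sorted by GFP positivity, so that the tumour cell fraction is the reporter-positive cells and the stromal fraction is every cell that passed as negative, whatever its origin. The age of the mice was not given in the labels, nor was the Ras population (RasLOW or RasHIGH) from which a given tumour had grown. Athymic mice lack a functional thymus and so keep few mature T-cells, while NK cells, B-cells and myeloid cells remain. The other 17 libraries, 8 from peritoneal tumours of the same mice and 9 from cultured cells (BMEL WT, RasLOW and RasHIGH, 3 each), were used here where they set a value in context.

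A carcinoma is a mixture of transformed epithelial cells and of host cells, mainly macrophages, neutrophils and other leukocytes, endothelial cells of the vessels, and fibroblasts or stellate cells that lay down fibrillar collagen. The compartments speak to each other through ligands made by some cells and receptors carried by others. In the liver, the host part also includes Kupffer cells, which are the resident macrophages, and sinusoidal endothelial cells, while hepatocytes border the tumour.

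Total counts lay between 31056484 and 43489904 in the 4 tumour cell libraries and between 27048224 and 40345401 in the 4 stromal libraries. Levels are CPM (read counts scaled to a common library size, with TMM factors), and errors beside CPM values are SDs over the 4 mice. Errors beside log2 fold changes are approximate SEs, the size of the change divided by the square root of edgeR's quasi-likelihood F. A level of 3 counts, taken as the floor, corresponded to at most 0.0928 CPM in tumour cells and at most 0.116 CPM in stromal cells, which covers counting error only. Library profiles correlated across genes at 0.988 to 0.991 among tumour cell libraries, at 0.983 to 0.986 among stromal libraries and at 0.688 to 0.728 between them. Hras, the mouse counterpart of the introduced human oncogene, was present at 52.8, 47.4, 55 and 54.1 CPM in the tumour cells of mice 1 to 4 and at 28.7, 26.3, 33 and 28.4 CPM in their stromal cells. Its log2 fold change of 0.85 ± 0.07 was under the threshold of 1. The oncogene was a human cDNA and reads were aligned to the mouse genome, so what part of these counts came from the transgene cannot be told. With all 25 libraries in 1 scaling, Hras averaged 80.4, 78.6 and 67.4 CPM in cultured BMEL WT, RasLOW and RasHIGH cells, and so was not highest where the oncogene was. It is thus no measure of the oncogene. Xist, made from the inactive X chromosome, was at 713 ± 101 CPM in tumour cells and 633 ± 62.9 CPM in stromal cells, and the Y-linked genes Ddx3y, Eif2s3y, Kdm5d and Uty were at or near 0 in both.

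Tumour and stromal cells differed over a large part of the transcriptome, and the largest differences lay on the stromal side. By edgeR's quasi-likelihood test with mouse as a block, 6425 of 14620 genes tested were called (43.9%), a call being an adjusted p-value under 0.05 with a log2 fold change beyond 1 in either direction. Of these, 2402 were higher in tumour cells (16.4%) and 4023 were higher in stromal cells (27.5%). The 4 tumour cell libraries and the 4 stromal libraries did not overlap for 10696 genes (73.2%). Over all genes tested the median log2 fold change was 0.01.

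**Figure D1:**
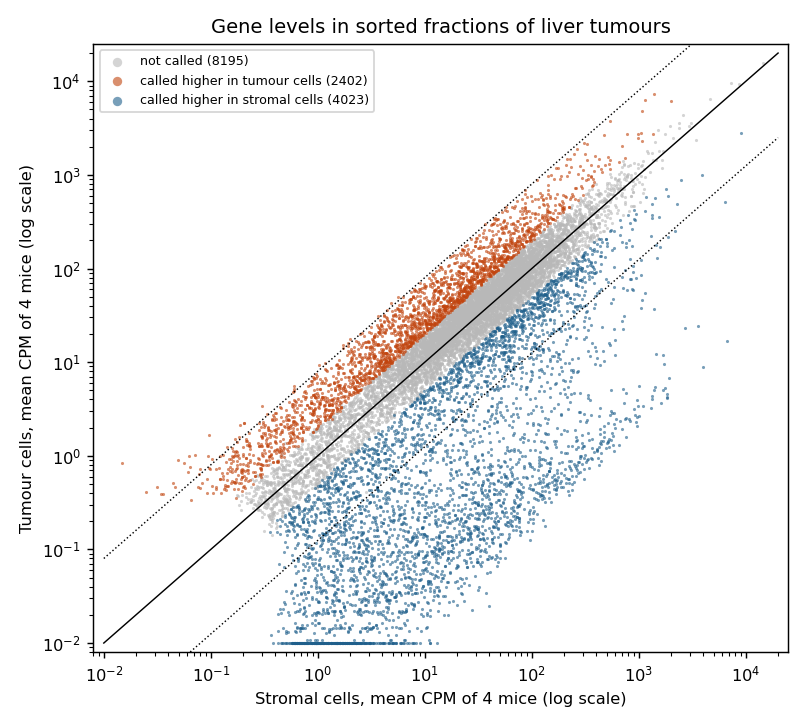
Mean CPM of 4 mice in stromal cells (horizontal, log scale) and tumour cells (vertical, log scale) for the 14620 genes tested, coloured by call, with values under 0.01 CPM drawn at 0.01. The solid line marks equal levels and the dotted lines an 8-fold difference. Few points lie above the upper dotted line, while 2477 genes called higher in stromal cells had a log2 fold change beyond 3 in size.

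The genes higher in stromal cells reached much larger differences. A log2 fold change beyond 3 was found for 48 genes called higher in tumour cells and for 2477 called higher in stromal cells, and beyond 5 for 1 and 1742 genes. No gene called higher in tumour cells was without a stromal count, whereas 156 genes called higher in stromal cells had no count in any tumour cell library. Among genes with at least 1 CPM in tumour cells, the farthest on the tumour side was Pla2g1b, a secreted phospholipase, at a log2 fold change of 4.11 or 17.2-fold. It did not meet the stricter rule used below, of no overlap, at least 100 counts and a stromal level above the floor. The largest value under that rule was 3.53, for Krt13. In bulk RNA, fewer cells of a type and less RNA per cell cannot be told apart, and this holds for each difference that follows.

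Hepatic lineage genes were among those higher in tumour cells. Of 24 tested hepatic progenitor and oncofetal genes, 15 were higher in tumour cells (62.5%) and 6 higher in stromal cells (25%). The list median was 2.27 against 0.01 for all genes. For this and each later list, the shares over all genes tested were 16.4% on the tumour side and 27.5% on the stromal side. The stromal share of this list was near that of all genes. Hnf4a, the nuclear receptor that maintains hepatic identity (chr2:163332544-163398646 in NCBIM37 (mm9), GENCODE M1), was at 235, 190.0, 214 and 213 CPM in tumour cells and at 27.3, 31.9, 27.3 and 32.9 CPM in stromal cells of mice 1 to 4. The groups did not overlap, and the log2 fold change was 2.84 ± 0.1 (edgeR, adjusted p = 2.6e-08). Other lineage factors stood at much the same distance: Foxa2 at 2.9, Foxa1 at 2.85, Onecut2 at 2.41 and the biliary factor Sox9 at 2.72. Oncofetal genes followed, with Hmga2, a chromatin architectural protein, at 1656 ± 147 CPM in tumour cells and 245 ± 42.6 CPM in stromal cells, and Igf2bp1, an RNA-binding protein of foetal tissue, at a log2 fold change of 2.69 ± 0.09.

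Oncofetal genes did not all lie on the tumour side. H19, an imprinted non-coding RNA of foetal liver, was at 0.434, 0.433, 0.841 and 0.371 CPM in tumour cells and at 56.9, 44.9, 58.8 and 47.4 CPM in stromal cells, a level 101-fold lower in tumour cells (log2 fold change -6.66 ± 0.16, edgeR adjusted p = 2.8e-09). Gpc3, a glypican used as a marker of hepatocellular carcinoma, was under the floor in tumour cells (0.029 CPM) and at 4.54 ± 2.16 CPM in stromal cells. Spp1, which encodes osteopontin, was at 590.5 ± 58.5 and 838 ± 259 CPM and was not called.

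The keratins Krt8, Krt18 and Krt19 were higher in tumour cells, while Krt7 and Epcam were among the epithelial genes higher in stromal cells. Of 23 tested genes of epithelial adhesion and junctions, 12 were higher in tumour cells and 9 in stromal cells (median 1.10). Krt19, a keratin of biliary and progenitor cells, reached 2240.4, 2135, 2254 and 2221 CPM in tumour cells and 318, 291, 293 and 331 CPM in stromal cells, a 7.18-fold difference. Krt8 and Krt18, the keratin pair of simple epithelia, had log2 fold changes of 2.81 and 2.7, and Cdh1, which encodes E-cadherin, 1.32 ± 0.08. Epcam, a pan-epithelial adhesion gene, was at 0.109, 0.0271, 0 and 0.124 CPM in tumour cells, at or around the floor, and at 5.49, 4.53, 6.27 and 5.62 CPM in stromal cells. The tight junction gene Cldn3 (0.095 and 2.67 CPM) and the membrane protease St14 (0.0945 and 4.98 CPM) were higher in stromal cells as well, and Krt7 was higher in stromal cells too, at -1.74 ± 0.32. In cultured BMEL WT, RasLOW and RasHIGH cells, with all 25 libraries in 1 scaling, Epcam averaged 0.329, 0 and 0.0253 CPM.

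Among called genes whose groups did not overlap, with at least 100 counts in all and a stromal level above the floor, those with the largest differences on the tumour side were of several kinds. Krt13, a keratin of stratified epithelium, was at 3.58, 4.28, 3.02 and 2.78 CPM in tumour cells against 0.233, 0.378, 0.198 and 0.387 CPM in stromal cells (log2 fold change 3.53 ± 0.3, edgeR adjusted p = 6.5e-06). Aldh3a1, an aldehyde dehydrogenase, followed at 3.47 ± 0.31, the granzyme Gzme, whose close paralogs make its counts uncertain, at 3.25 ± 0.21 and the homeobox gene Dlx3 at 3.12 ± 0.15. Among genes with a log2 fold change above 3, Cldn2, a pore-forming claudin, drew the most reads in tumour cells, at 889 ± 88.4 CPM and 111 ± 21.1 CPM in stromal cells. The tetraspanin Tspan8 was at 297 ± 46.2 and 36.1 ± 4.58 CPM. The hyaluronan synthase Has3 was at 20.6 ± 3.1 and 2.58 ± 0.496 CPM.

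The levels of tumour-enriched genes in the stromal libraries were measurable in every mouse. With libraries scaled by their totals alone, and as a share of the level in tumour cells of the same mouse, stromal cells held 10.5%, 16.5%, 12.7% and 14.1% of Hnf4a in mice 1 to 4, 10.0%, 13.8%, 13.5% and 14.2% of Foxa2 and 12.8%, 13.4%, 13% and 13.7% of Krt19. No gene among the 7031 with at least 20 CPM in tumour cells had a mean level under 10% in stromal cells, and the lowest was Gimd1, a GTPase-domain gene, at 10.5%. In the other direction, 554 of 7397 genes with at least 20 CPM in stromal cells were under 1% in tumour cells. The stromal fraction thus carried hepatic lineage transcripts in all 4 mice, and a fold change on the tumour side is one against that level. Which cells of the fraction held them was not tested.

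Few genes of the Ras cascade were called, a call requiring a log2 fold change beyond 1, and over a list of Erk targets 15 were higher in tumour cells. Of 19 genes of the Ras, Raf, Mek, Erk and Rsk families, 2 were called higher in tumour cells, namely the Mek gene Map2k1 (1.2 ± 0.08) and the Rsk gene Rps6ka2 (2.23 ± 0.07), and 2 were higher in stromal cells, the Raf gene Braf (-1.19 ± 0.11) and the Rsk gene Rps6ka1 (-1.42 ± 0.06), with a list median of 0.57. Each side held 10.5% of that list, against 16.4% and 27.5% of all genes tested. The groups did not overlap for 15 of the 19 (78.9%, against 73.2% of all genes tested). Of 28 Erk feedback regulators and delayed early targets, 15 were higher in tumour cells (53.6%) and 3 in stromal cells (10.7%). Their median was 1.14, none of the lists being compared by a test. Spry2, a feedback inhibitor of receptor tyrosine kinases, was at 163, 191, 222 and 194 CPM in tumour cells and 36.7, 44, 40.7 and 43.5 CPM in stromal cells (2.22 ± 0.08, edgeR adjusted p = 2.6e-08). The Ets factor Etv4 (2.24 ± 0.07), the AP-1 gene Fosl1 (2.05 ± 0.07), the G1 cyclin Ccnd1 (2.64 ± 0.09) and the ephrin receptor Epha4 (2.7 ± 0.09) were likewise higher. Dusp6, an Erk phosphatase, did not pass the threshold of size (393 ± 39.3 and 246 ± 37.6 CPM, log2 fold change 0.68), nor did the immediate early gene Egr1, whose stromal value of mouse 2 lay within the tumour cell range (1409, 1650.0, 1842 and 2000.5 against 868, 1802, 1152 and 1014 CPM). Etv5 was higher in stromal cells by 3.63-fold, as was the pro-apoptotic Bcl2l11 by 4.5-fold.

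Some cell cycle genes were higher in tumour cells. Of 30 genes tested, 12 were higher in tumour cells (40%, against 16.4% of all genes tested), none in stromal cells, and the median was 0.89. Top2a, the topoisomerase of dividing cells, was at 374, 246, 186 and 324 CPM in tumour cells and 99, 116, 97.1 and 132 CPM in stromal cells, Rrm2, a subunit of ribonucleotide reductase, had a log2 fold change of 1.82 ± 0.11, and the spindle checkpoint kinase Bub1 1.51 ± 0.1. Mki67, the gene of the Ki67 antigen, was at 145, 94.1, 71.3 and 119.5 CPM in tumour cells and 98.9, 142, 112 and 137 CPM in stromal cells and was not called (edgeR, adjusted p = 0.28).

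Metabolic genes were called on both sides, at shares near those of all genes. Of 28 glycolysis and hypoxia genes, 6 were higher in tumour cells and 7 in stromal cells (median 0.44), which is 21.4% and 25% of the list against 16.4% and 27.5% of all genes tested. The hexokinase Hk1 was at 598 ± 64.8 CPM in tumour cells and 241 ± 17.2 CPM in stromal cells, while Hk3, the hexokinase of myeloid cells, was at 0.415 ± 0.191 and 79.9 ± 8.04 CPM. Slc2a1, a widely used glucose transporter, overlapped (727 ± 198 and 554 ± 81.5 CPM), and the transporter Slc2a3 was higher in stromal cells (0.196 ± 0.128 and 76.6 ± 26.2 CPM). The lactate exporter Slc16a3 was 340.3-fold lower in tumour cells. Hypoxia-responsive Ndrg1 (1.53 ± 0.13) and Egln3 (1.33 ± 0.09) were higher in tumour cells, and Vegfa, the main vessel growth factor, was measured in both (1016 ± 157 and 730.0 ± 92.3 CPM) and not called.

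Lipid and antioxidant genes were divided. Of 27 genes of sterol and fatty acid synthesis, 9 were higher in tumour cells and 3 in stromal cells (median 0.50). Squalene epoxidase, Sqle, was at 1.81 ± 0.07 and fatty acid synthase, Fasn, at 1.12 ± 0.1 (not called without mouse 1, at 0.998). Of 26 glutathione and Nrf2 target genes, 5 were higher in tumour cells (19.2%, near the 16.4% of all genes), such as Gsta4 (2.79 ± 0.07) and malic enzyme Me1 (2.56 ± 0.08), and 11 in stromal cells (42.3%, list median -0.17). The cystine transporter Slc7a11 was among these, at 8.14, 3.09, 3.77 and 3.68 CPM in tumour cells and 293, 80.1, 164 and 194 CPM in stromal cells, and Nqo1, a classical Nrf2 target, was around the floor in tumour cells (0.0539 CPM) with 1.44 CPM in stromal cells. Gclm, a subunit of glutamate-cysteine ligase, was called at 1.04 but was under 1 with RLE size factors, at 0.96, and without mouse 1, at 0.95.

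**Figure D2:**
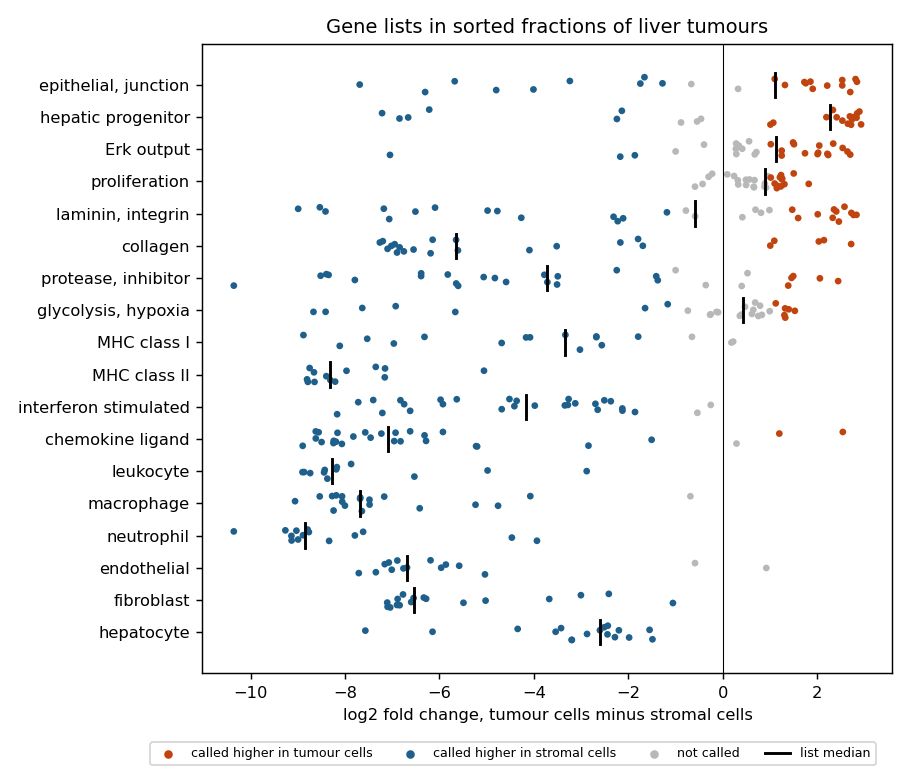
Log2 fold change of each tested member of 18 gene lists (tumour cells minus stromal cells of 4 mice), coloured by call, with the list median as a black bar. Hepatic progenitor genes gather near 2.27, while leukocyte genes gather near -8.28 and hepatocyte genes near -2.60.

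Genes of every leukocyte lineage on the lists were higher in stromal cells. The 12 pan-leukocyte genes were all higher in stromal cells, with a median of -8.28, and their summed level ran from 6818 to 8369 CPM in stromal cells and from 86 to 119 CPM in tumour cells. Ptprc, which encodes CD45, was at 1.72, 2.0, 1.94 and 2.57 CPM in tumour cells and 964, 908, 937 and 996 CPM in stromal cells (-8.87 ± 0.12, edgeR adjusted p = 4.4e-10). Macrophage and monocyte genes were called in stromal cells in 18 of 19 cases, with the growth factor receptor Csf1r at 1409 ± 77.9 CPM, lysozyme Lyz2 at 1914 ± 234 CPM and Adgre1, which encodes F4/80, at 142 ± 40.2 CPM, against 5.42, 6.82 and 0.468 CPM in tumour cells. All 8 Kupffer cell genes were higher in stromal cells (median -6.08), and the macrophage list had a median of -7.68. The Kupffer cell lectin Clec4f varied between mice at 92.7, 210.1, 69 and 66.4 CPM, being highest in mouse 2.

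Granulocyte genes gave some of the largest differences. The 14 neutrophil genes were all higher in stromal cells (median -8.84). S100a9, a calcium-binding protein of neutrophils, was at 0.412, 1.03, 1.8 and 1.05 CPM in tumour cells and 344, 453, 635 and 358 CPM in stromal cells. Ngp, of neutrophil precursors, was lowest in the stroma of mouse 1 at 71.9, 225, 340.4 and 316 CPM, as was lactoferrin, Ltf, at 41.8, 122, 189 and 155 CPM. Mmp8, the neutrophil collagenase, was under the floor in all 4 tumour cell libraries and at 39.7 ± 10.2 CPM in stromal cells. Of 8 mast cell, basophil and eosinophil genes, 7 were higher in stromal cells (median -7.97, or -7.63 with members lacking any tumour cell count set at a floor of 3 counts), and Mcpt8, a basophil protease, was higher in tumour cells at 24.8, 17.3, 28.3 and 22 CPM against 3.29, 6.01, 7.92 and 10.1 CPM.

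Dendritic and lymphoid genes were mostly higher in stromal cells too. Of 12 dendritic cell genes, 10 were higher in stromal cells, including Clec9a of the cross-presenting type (37.1 ± 3.37 CPM) and Siglech of the plasmacytoid type (23.1 ± 6.05 CPM), both at or near the floor in tumour cells, while Cd24a, also made by epithelia, was higher in tumour cells (1.07 ± 0.12, a call lost without mouse 3, at 0.96). The list median was -7.75. The 13 NK cell genes were all higher in stromal cells (median -7.24, or -7.23 with the same floor). Ncr1, which encodes NKp46, was at 3.06, 8.69, 4.95 and 7.59 CPM in stromal cells and 0.239, 0.19, 0.435 and 0.0928 CPM in tumour cells, and the granzyme Gzma was at 19.5 ± 4.63 CPM. T-cell genes were higher in stromal cells in 7 of 8 cases (median -6.31), though Cd3e, a subunit of the T-cell receptor complex, overlapped at 0.933, 0.921, 0.928 and 1.92 CPM in tumour cells and 1.4, 1.41, 2.44 and 1.47 CPM in stromal cells, and Cd4 was at 12.2 ± 3.1 CPM in stromal cells. All 8 B-cell genes (median -5.95), such as Cd79a of the antigen receptor (0.658 ± 0.318 and 10.1 ± 3.07 CPM), and the 3 tested platelet and erythroid genes (median -4.31), such as Itga2b (-4.31 ± 0.17), were higher in stromal cells.

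Most vessel and connective tissue genes were higher in stromal cells. Of 15 endothelial genes, 13 were higher in stromal cells (median -6.69), with Pecam1, which encodes CD31, at 0.977, 2.74, 1.65 and 2.17 CPM in tumour cells and 164, 202, 224 and 204 CPM in stromal cells. The VEGF receptor Kdr was at 81.8, 252, 123 and 101 CPM in the stroma and the sinusoidal scavenger receptor Stab2 at 75.4, 241, 118 and 93.1 CPM, and both were highest in mouse 2. All 8 sinusoidal genes were higher in stromal cells (median -7.09). So were all 17 tested genes of fibroblasts, stellate and mural cells (median -6.55), with the mural receptor Pdgfrb at 187, 119, 78.3 and 78.3 CPM, highest in mouse 1. Of 6 mesothelial genes, 5 were higher in stromal cells (median -5.96), among them Upk3b at 5.7, 20.4, 22.3 and 8.68 CPM, and Msln, which encodes mesothelin, was higher in tumour cells at 256, 212, 252 and 246 CPM against 44.7, 52.1, 71.5 and 52.4 CPM.

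Hepatocyte genes stood apart from the other host genes. All 17 tested were higher in stromal cells, but their median of -2.60 was far smaller than that of leukocyte genes, and the groups did not overlap for 7 of them (41.2%, against 73.2% of all genes tested). Their summed level was 749 to 1058 CPM in stromal cells and 18.3 to 77 CPM in tumour cells, of which Arg1 and Hp, 2 genes that myeloid cells also make, held 621 to 884 CPM in stromal cells. The other 15 summed to 67.8 to 419 CPM in stromal cells and 15.8 to 68.9 CPM in tumour cells, so that the groups overlapped. Alb, which encodes albumin, was at 3.39, 22.4, 28.2 and 5.17 CPM in tumour cells and 45.1, 119, 40.8 and 13.3 CPM in stromal cells, so that the groups overlapped. Fgb, a fibrinogen chain, was at 2.19, 8.59, 5.13 and 1.98 CPM in tumour cells and 36, 66.1, 31.8 and 19.6 CPM in stromal cells. In each mouse, the median hepatocyte gene in tumour cells was at 6.1% to 31.8% of its stromal level, against 0.258% to 0.367% for leukocyte genes, 0.163% to 0.277% for neutrophil genes and 0.595% to 2.02% for fibroblast genes. Arg1 and Hp were exceptions on this list, at log2 fold changes of -7.57 and -6.15. What part hepatocyte RNA had in the differences was not tested.

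The endothelial genes Flt1 and Cdh5 were not called, and Dll4, which was on the list of pairs and not among the endothelial markers, was higher in tumour cells. Flt1, a VEGF receptor, was at 187, 196, 228 and 199 CPM in tumour cells and 111, 136, 72.2 and 116 CPM in stromal cells, so that every tumour cell library was higher (log2 fold change 0.92 ± 0.16, not called). Without mouse 2 the value was 1.06 and passed, as it did with upper-quartile scaling at 1.04. Cdh5, which encodes VE-cadherin, overlapped at 101, 98.5, 216 and 67.5 CPM in tumour cells and 147, 263, 120.1 and 153 CPM in stromal cells, with the highest tumour cell value in mouse 3. It was called higher in stromal cells, at -1.06, when mouse 3 was left out. The Notch ligand Dll4 was higher in tumour cells, at 182, 145, 199.5 and 218 against 39.6, 45, 30.3 and 47.4 CPM (2.2 ± 0.15, edgeR adjusted p = 1.4e-06), and the receptor Notch4 was not called (78.5 ± 6.52 and 52 ± 17 CPM).

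In the same tumour cell libraries Pecam1 and Kdr averaged 1.88 and 0.833 CPM. With all 25 libraries in 1 scaling, in cultured BMEL WT, RasLOW and RasHIGH cells, Flt1 averaged 1.78, 5.04 and 11 CPM, Cdh5 0.0723, 1.22 and 8.56 CPM and Dll4 0.0959, 0.122 and 1.61 CPM. Mrc1, the mannose receptor of macrophages, was at 448, 386, 374 and 359.5 CPM in tumour cells and 693, 604, 622 and 595 CPM in stromal cells, a difference of 1.61-fold that was under the threshold, and it averaged 27.4, 90.1 and 278 CPM in the 3 cultured groups. The leukocyte tetraspanin Cd53 was lower in tumour cells but still at 58 ± 14.6 CPM, 13.8% of stroma, and the iron exporter Slc40a1 at 15.7 ± 1.85 CPM.

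**Figure D3:**
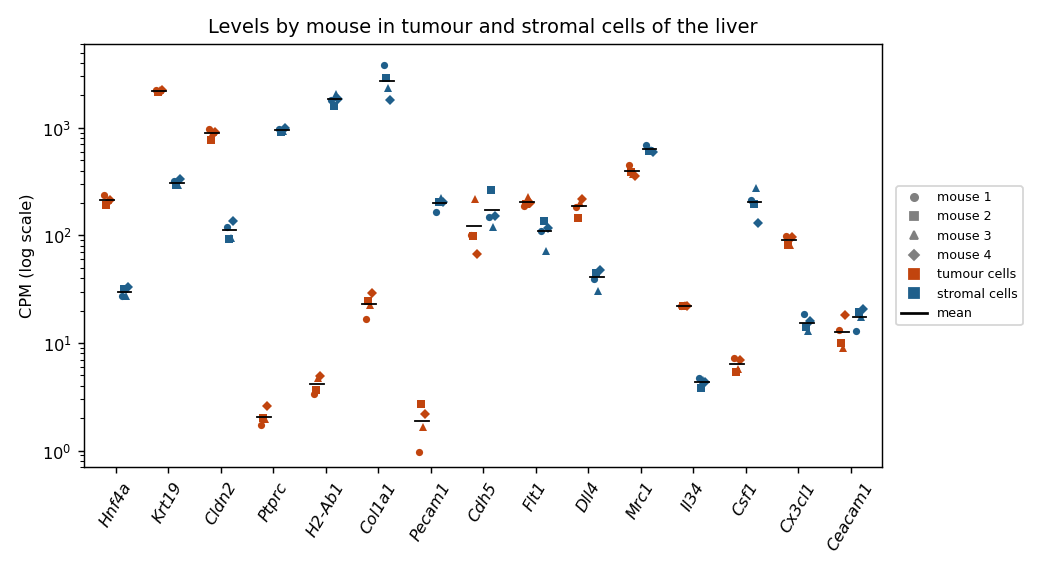
CPM of 15 genes in each mouse (log scale), tumour cells in orange and stromal cells in blue, with a symbol per mouse and the mean as a bar. Ptprc, H2-Ab1, Col1a1 and Pecam1 lie far apart between the compartments, Hnf4a, Krt19 and Cldn2 lie closer, and Cdh5, Flt1, Mrc1 and Ceacam1 have log2 fold changes under 1 in size.

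Most genes of antigen presentation and interferon response were lower in tumour cells than in stromal cells. None of 13 MHC class II genes was higher there and all 13 were higher in stromal cells (median -8.31). Cd74, the invariant chain, was at 13.9, 12.6, 19.4 and 21.7 CPM in tumour cells and 7169.5, 5301, 7247 and 7106 CPM in stromal cells, lowest in mouse 2, and H2-Ab1 was at 4.18 ± 0.798 and 1829 ± 197 CPM. Of 17 class I genes, 14 were higher in stromal cells (median -3.33). The heavy chain H2-K1 was at 33.3, 38.3, 43.2 and 37.4 CPM against 432, 339, 368 and 392 CPM, and B2m, the light chain, at 221 ± 18.5 against 1307 ± 128 CPM, so both remained measurable in tumour cells. The peptide transporter Tap1 (0.572 and 72.2 CPM), the immunoproteasome subunit Psmb8 (0.404 and 113 CPM) and the class I transactivator Nlrc5 (0.039 and 20.5 CPM) were lower by a wider margin.

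Of 28 interferon-stimulated genes, 26 were higher in stromal cells and none in tumour cells (median -4.17). The ubiquitin-like Isg15 was at 0.823 ± 0.162 and 40.5 ± 3.49 CPM. Oasl1, by contrast, overlapped at 20.1, 14.7, 27.6 and 25.4 CPM in tumour cells and 29.2, 29.7, 19.9 and 24.1 CPM in stromal cells. Complement genes were higher in stromal cells in 24 of 27 cases (median -5.67), with the classical pathway gene C1qa at 719 ± 108 CPM against 3.69 ± 1.64 CPM, C3 at -5.62 ± 0.16 and the receptor C5ar1 at -8.76 ± 0.2.

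Matrix genes were called in both directions. The fibrillar collagen genes Col1a1 and Col3a1 were higher in stromal cells, while Col27a1, also of this class, was higher in tumour cells (2.04 ± 0.07). Col1a1 was at 16.6, 24.8, 22.7 and 29 CPM in tumour cells and 3792, 2917, 2343 and 1822 CPM in stromal cells, and Col3a1 had a log2 fold change of -7.1 ± 0.21. Of 23 collagen genes, 18 were higher in stromal cells (78.3%) and 5 in tumour cells (21.7%, against 16.4% of all genes), with a median of -5.65. Col18a1, a basement membrane collagen, was 1 of those on the tumour side, at 1543, 1402, 1382 and 1588 CPM against 233, 211, 182 and 280.0 CPM. Col7a1, of anchoring fibrils, was at 295, 339, 321 and 318 CPM against 56.1, 79, 74.3 and 80.7 CPM, and averaged 8.99, 7.59 and 12.4 CPM in cultured BMEL WT, RasLOW and RasHIGH cells. Col17a1, a hemidesmosome collagen, was called at 1.09 ± 0.25 but lost the call without mouse 3, at 0.93, or without mouse 4, at 0.99, and the groups overlapped. Col4a5 was called at 1.01 ± 0.13, a call lost without the mouse block (0.99), with RLE size factors (0.93), with DESeq2 (0.93), with a minimum of 2 CPM (0.95) and without mouse 1, 2 or 4 (0.96, 0.92 and 0.95).

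The laminin chains and integrins of hemidesmosomes lay together on the tumour side. Lama3 and Lamb3, which encode chains of laminin-332, had log2 fold changes of 2.01 ± 0.08 and 2.58 ± 0.08. Lamb3 was at 225, 233, 300.1 and 257 CPM in tumour cells and 36.2, 39.5, 44.7 and 49.6 CPM in stromal cells. The integrin genes Itga6 and Itgb4, whose products bind laminin-332, were at 1653 ± 54.5 and 341 ± 70.9 CPM in tumour cells against 312 ± 17 and 47.5 ± 7.37 CPM, and Itga3 at 1184 ± 117 against 174 ± 30.6 CPM. Over the list, 11 of 31 laminin and integrin genes were higher in tumour cells and 14 in stromal cells (median -0.58).

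Proteases were mostly higher in stromal cells. Of 29 genes, 20 were higher in stromal cells (69%) and 5 in tumour cells (17.2%, near the 16.4% of all genes), with a median of -3.71. The macrophage elastase Mmp12 was at 3.41 ± 0.908 CPM in tumour cells and 1097 ± 174 CPM in stromal cells, the gelatinase Mmp9 at -7.79 ± 0.2 and urokinase, Plau, at -4.82 ± 0.14. Of the metalloproteinase inhibitors, Timp2 was higher in tumour cells (1.5 ± 0.08) and Timp3 in stromal cells (-6.39 ± 0.29), and the stromelysin Mmp10 was higher in tumour cells (2.45 ± 0.2).

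Most chemokine genes were higher in stromal cells. Of 28 ligands, 25 were higher in stromal cells and 2 in tumour cells (median -7.09), and of 17 receptors, 16 and 1 (median -7.13, or -5.93 with members lacking any tumour cell count at the floor). Cxcl2, which draws neutrophils, was at 2.37, 4.04, 3.05 and 4.27 CPM in tumour cells and 997, 1009, 993 and 934 CPM in stromal cells. Ccl24, an eosinophil chemokine, was at 583 ± 143 CPM, and Ccl2, a monocyte chemokine, at 38.8 ± 11.6 CPM in the stroma and 0.221 CPM in tumour cells. Il1b, an inflammatory cytokine, was among the stromal genes with the most reads, at 3229.5, 3761, 4759 and 4252 CPM against 5.43, 8.72, 10.3 and 11.3 CPM. On the tumour side stood Cx3cl1, the membrane-bound chemokine fractalkine, at 98.5, 80.9, 82.2 and 96.8 CPM against 18.6, 14, 13 and 16.1 CPM, Cxcl5 at a low level (2.91 ± 0.372 against 1.37 ± 0.796 CPM, overlapping in mouse 3) and the scavenging receptor Ackr3 (1.77 ± 0.07).

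Among 54 ligand and receptor pairs, 10 had the ligand called higher in tumour cells and the receptor in stromal cells, 1 the reverse, and 17 both in stromal cells. The reverse pairs were 2 without mouse 1, with upper-quartile scaling and with library totals only. Taken singly, 16 ligand genes were called higher in tumour cells and 21 in stromal cells, and 5 and 31 receptor genes. Over all genes tested the shares were 16.4% and 27.5%. Receptors of these pairs thus lay mostly on the stromal side, and whether the pairing adds to that was not tested. The growth factors of myeloid cells were split. Il34, a ligand of Csf1r, was at 21.9, 21.8, 22.5 and 22.1 CPM in tumour cells and 4.71, 3.85, 4.52 and 4.38 CPM in stromal cells (2.34 ± 0.11, edgeR adjusted p = 1.2e-07), while Csf1, the other ligand, was at 7.19, 5.42, 5.68 and 6.99 CPM and 215, 195, 277 and 131 CPM. With all 25 libraries in 1 scaling, cultured BMEL WT, RasLOW and RasHIGH cells averaged 193, 51.3 and 27.5 CPM of Csf1 and 0, 0.0479 and 0.734 CPM of Il34, which was not tested against the tumours. Csf2, which encodes GM-CSF, was higher in tumour cells (15.9 ± 3.03 against 3.29 ± 0.661 CPM) and its receptor chain Csf2ra in stromal cells (1.22 ± 0.477 against 498 ± 47.6 CPM).

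Further pairs joined tumour ligands to stromal receptors. Cx3cl1 faced Cx3cr1, at 61.3 ± 6.19 CPM in stromal cells and 1.12 ± 0.284 CPM in tumour cells. Jag1, a Notch ligand, was at 904 ± 131 CPM in tumour cells, with Notch1 at 3.08, 2.63, 6.73 and 4.52 CPM there and 294, 187, 179.9 and 198 CPM in the stroma. Il33, an alarmin, was at 1.54 ± 0.08 with its receptor Il1rl1 at -5.08 ± 0.31, and Lif, a cytokine of the interleukin-6 family, was at 1.25 ± 0.08 with Lifr at -7.1 ± 0.12. Pdgfa (2.06 ± 0.09) and Pdgfc (1.13 ± 0.16) faced Pdgfra (-3.67 ± 0.19), Sema3a (1.71 ± 0.08) faced the co-receptor Nrp1 (-4.23 ± 0.11), and Cxcl5 faced Cxcr2 (-3.93 ± 0.14). The call of Pdgfc was lost without mouse 3, at 0.92.

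In the reverse direction, Hgf, hepatocyte growth factor, was at 0.347, 0.19, 0.116 and 0.217 CPM in tumour cells and 25, 37.3, 26.3 and 28 CPM in stromal cells, and its receptor Met was at 128, 124, 107 and 134 CPM in tumour cells and 35.1, 48.1, 44.6 and 48.8 CPM in stromal cells. Mst1r, the related receptor Ron, was higher in tumour cells too (2.3 ± 0.1). The Egf receptor ligands Tgfa (2.54 ± 0.09), Areg (2.34 ± 0.08) and Hbegf (1.25 ± 0.08) were all higher in tumour cells, while Egfr itself overlapped at 32.2, 44, 39.7 and 42.9 CPM in tumour cells and 26.3, 35.9, 38.4 and 24.7 CPM in stromal cells.

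**Figure D4:**
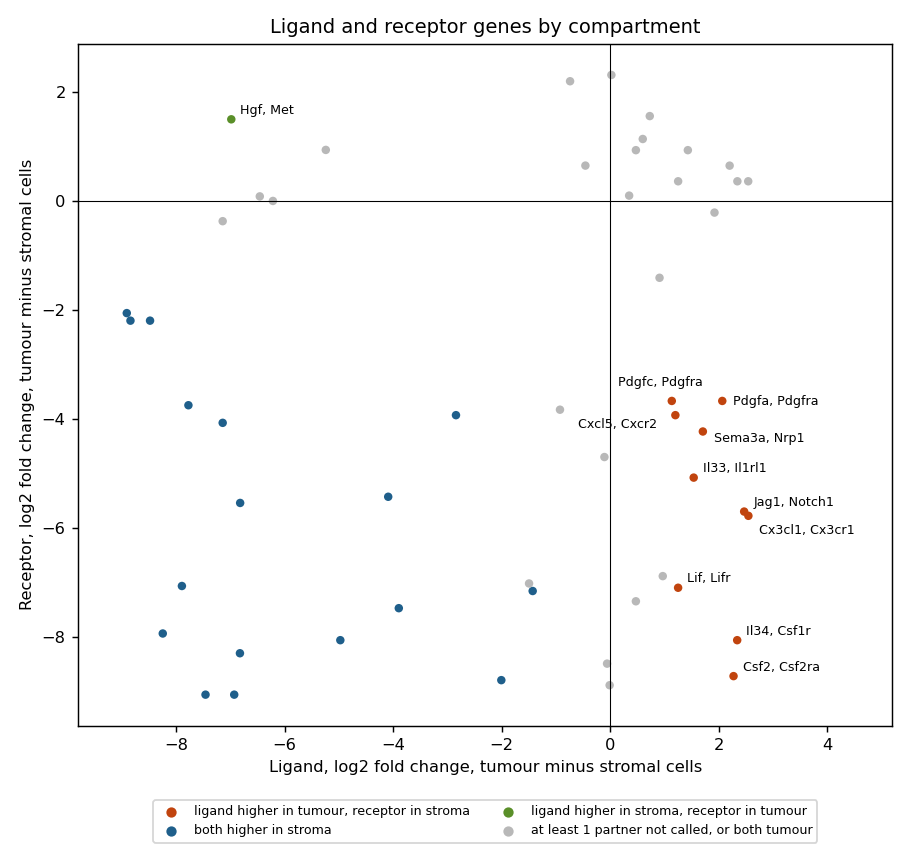
Log2 fold change (tumour minus stromal cells, 4 mice) of the ligand (horizontal) and of the receptor (vertical) for the ligand and receptor pairs with both genes tested. The 10 pairs in the lower right have a ligand called higher in tumour cells and a receptor called higher in stromal cells, and Hgf with Met in the upper left is the single pair the other way.

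The sequences just upstream of the start of 3 genes are shown as examples for both sides of the comparison. Met is the tumour-side receptor of the Hgf pair, Clec5a, a myeloid lectin, is among the largest stromal differences (0.174, 0.0542, 0.116 and 0.155 against 104, 90.4, 101 and 85.7 CPM), and Csf2ra is the stromal receptor of the Csf2 pair. They were chosen after their values and matches had been seen. The sequences are those of RefSeq on GRCm38.p6, 120 bases ending 1 base before the start, 5′ to 3′ on the gene's strand, and capitals mark a match on either strand to the motifs TGANTCA (AP-1, in Met) and GAGGAAG (Ets core, in Clec5a and Csf2ra, where the 2 matches share 1 base). The windows are chr6:17463837-17463956 for Met (plus strand), chr6:40585806-40585925 for Clec5a (minus strand) and chr19:61228419-61228538 for Csf2ra (minus strand).
Met: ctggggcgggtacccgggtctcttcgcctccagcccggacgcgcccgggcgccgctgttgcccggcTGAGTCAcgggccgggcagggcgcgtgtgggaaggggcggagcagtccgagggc
Clec5a: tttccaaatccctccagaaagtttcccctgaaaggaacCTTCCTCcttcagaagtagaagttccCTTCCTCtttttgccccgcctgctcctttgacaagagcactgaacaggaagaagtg
Csf2ra: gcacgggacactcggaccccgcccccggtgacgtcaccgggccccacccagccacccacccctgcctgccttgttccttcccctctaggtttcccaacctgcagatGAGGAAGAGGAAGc
A match is a description of the letters and not of binding. Over the 27025 genes of the promoter table, the same 120 bases hold the AP-1 motif in 3.4%, the Ets core in 5.49% and a TATA box (TATAAA) in 6.76%. Shares among called genes are not given, because 77.95% of the genes tested had a sequence in the table, under the 80% required.

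Most of the called immune regulatory ligands were higher in stromal cells. Of 21 checkpoint and NK cell ligand genes, 12 were higher in stromal cells (57.1%) and 3 in tumour cells (14.3%, near the 16.4% of all genes), with a median of -2.19. Cd274, which encodes PD-L1, was at 1.63, 3.25, 2.96 and 3.37 CPM in tumour cells and 295, 296, 321 and 323 CPM in stromal cells, and the co-stimulatory ligand Cd80 at 0.384 and 224 CPM. Cd276, which encodes B7-H3, was higher in tumour cells at 76.9, 69, 71.6 and 76.3 against 27.5, 22.6, 26.7 and 25.3 CPM, and Vtcn1, which encodes B7-H4, at 5.16 ± 1.77 against 1.05 ± 0.527 CPM. The third was Raet1e, a ligand of the NK receptor NKG2D (1.76 ± 0.37), whose family members share sequence, so that its counts are uncertain.

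Of Ceacam1, Csn3, Selp and Tmem252, which the study singled out from samples of this series and which are thus no independent evidence, Csn3 and Tmem252 were called higher in tumour cells. Csn3, the casein kappa gene, was at 59.5, 42.9, 74.7 and 55.6 CPM in tumour cells and 8.47, 6.83, 8.42 and 9.14 CPM in stromal cells (2.81 ± 0.11, edgeR adjusted p = 4.2e-08), and Tmem252, a membrane protein gene, at 20.9, 14.2, 18.2 and 14.3 CPM in tumour cells and 4.01, 2.78, 2.81 and 2.29 CPM in stromal cells. Ceacam1, an adhesion molecule that can inhibit NK cells, overlapped between compartments at 13.1, 10.1, 9.02 and 18.1 CPM in tumour cells and 13, 19.3, 17.5 and 20.5 CPM in stromal cells, with a log2 fold change of -0.51 ± 0.18. Selp, which encodes P-selectin and is otherwise a gene of platelets and endothelium, overlapped as well at 76.7, 83.5, 89.5 and 108 CPM in tumour cells and 38.6, 88.2, 59.6 and 66.4 CPM in stromal cells. Mfge8, a bridging protein in the clearance of apoptotic cells, was higher in every tumour cell library but under the threshold of size (168 ± 42.8 and 90.8 ± 7.27 CPM, 0.86 ± 0.11).

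The difference between tumour cells and stroma was compared with that in the peritoneal tumours of the same mice by an interaction term in edgeR, over all 16 libraries with tumour as a block. Each tumour had its own block, so the liver and peritoneal differences were not paired by mouse. It was called for 1026 of 15331 genes (6.69%), of which 617 were higher in liver (4.02%) and 409 lower (2.67%). In the peritoneum itself 6358 of 14584 genes were called (43.6%), 2369 on the tumour side (16.2%) and 3989 on the stromal side (27.4%). With library totals only, the interaction split was 560 and 563. A value lower in liver means that the log2 ratio of tumour cells to stroma was smaller there. In the peritoneal tumour cell library of mouse 1, genes with at least 20 CPM in the stroma stood higher than in the other mice, the 5th percentile being 3.33% of stroma against 0.415% to 0.517%. Without mouse 1, 772 genes were higher and 336 lower. Without mouse 2 the counts were 369 and 192, and without mouse 3 they were 430 and 220.

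Some hepatic lineage genes of the tumour stood lower against stroma in the liver than in the peritoneum. The difference was called, in either direction, for 6 of the 24 hepatic progenitor genes tested in liver, against 6.69% of all genes. Lower stromal shares in the peritoneum were not limited to lineage genes. By library totals, 184 of 7169 genes with at least 20 CPM in peritoneal tumour cells were under 10% of that level in peritoneal stroma, the lowest at 4.21%. In liver stroma it was 0 of 7031 genes, the lowest at 10.5%. Hnf4a had a log2 fold change of 2.84 in liver and 4.39 in peritoneum, a difference of -1.5 ± 0.21 (edgeR interaction, adjusted p = 0.0024). Foxa2 differed by -1.3 ± 0.21, Onecut2 by -1.45 ± 0.33, Cldn2 by -1.17 ± 0.2 and Krt19 by -1.02 ± 0.11. Foxa1 (-0.84 ± 0.32) and Sox9 (-0.58 ± 0.13) were not called. As a share of the tumour cells, the peritoneal stroma held 5.47%, 2.82%, 5.03% and 4.82% of Hnf4a in mice 1 to 4 and 6.68%, 5.12%, 5.89% and 6.94% of Krt19, each of which was under every liver value of that gene. For Foxa1 the peritoneal value of mouse 4, 10.0%, lay within the liver range. The call for Cldn2 was lost without mouse 2, at -0.99, and that for Onecut2 without mouse 2 or mouse 3, at -1.21 and -1.44. That for Krt19 was lost without the tumour block, at -0.99, and under 5 other settings.

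**Figure D5:**
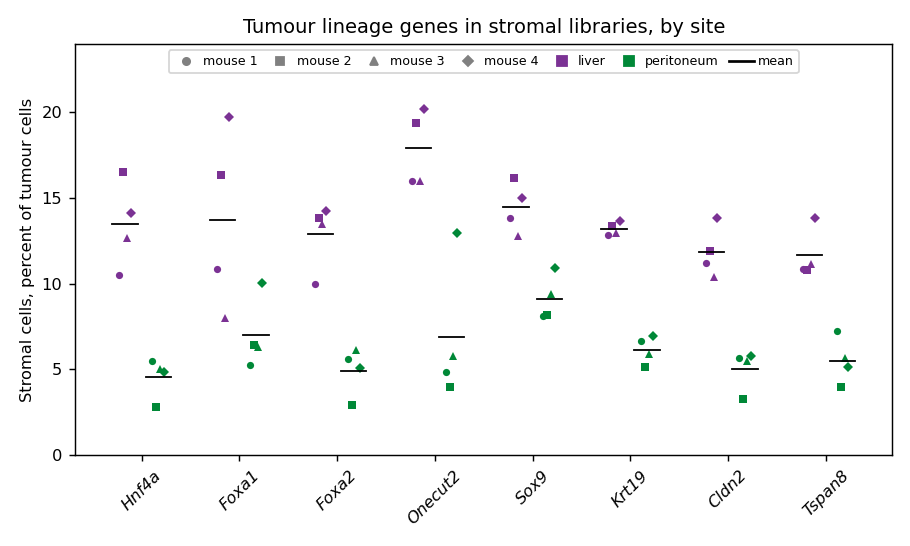
Level in stromal cells as a percent of that in tumour cells of the same tumour for 8 genes enriched in tumour cells, in liver (purple) and peritoneum (green), with a symbol per mouse and the mean as a bar. Means lie between 11.7% and 17.9% in liver and between 4.53% and 9.13% in peritoneum.

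The genes with the largest differences between sites included some with unlike levels in the 2 stromas, given here with all 25 libraries in 1 scaling. Col28a1, a collagen gene, was at 0.176 ± 0.127 CPM in liver stroma and at 74.2 ± 16.4 CPM in peritoneal stroma, so that the ratio differed by 8.96 ± 1.05 on the log2 scale. The peptidase Xpnpep2 was at 0.216 ± 0.233 and 10.1 ± 1.83 CPM in the 2 stromas. Hepatocyte products went the other way: Igfbp1, a carrier of insulin-like growth factors, was at 5.59 ± 2.12 CPM in liver stroma and 0.00969 ± 0.0194 CPM in peritoneal stroma, and Fgb at 39.3 ± 20.1 and 0.0187 ± 0.0373 CPM, the peritoneal values of both being under the floor. The call of Fgb was lost without mouse 2 or 3. Rab3b, a vesicle GTPase, was at 6.32 ± 3.46 CPM in liver stroma, highest in mouse 2, and at 0.109 ± 0.149 CPM in peritoneal stroma. Tal1, a haematopoietic and endothelial transcription factor, was at 9.2 ± 2.41 CPM in liver stroma and 9.03 ± 2.17 CPM in peritoneal stroma, within the spread of the mice. It had no count in liver tumour cells and 0.194 ± 0.246 CPM in peritoneal tumour cells. In liver it was at least 96.9-fold higher in stroma, against a floor of 3 counts per library and in the scaling of the 8 liver libraries. Its call between sites was lost without mouse 2, 3 or 4.

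The ratio of tumour cells to stroma also differed by site for genes of either compartment. Tmem252 had a log2 fold change of 2.51 in liver and -0.08 in peritoneum (2.66 ± 0.31, edgeR interaction, adjusted p = 9.6e-04), with 17.7 ± 3.51 CPM in liver and 7.34 ± 1.59 CPM in peritoneal tumour cells and 9.02 ± 5.09 CPM in their stroma. Il33 was at 1.54 in liver and -0.3 in peritoneum and Cd276 at 1.53 and 0.37. Ceacam1, not called in liver at -0.51, was lower in peritoneal tumour cells than in their stroma at -2.04. The difference of 1.56 ± 0.41 was called (edgeR interaction, adjusted p = 0.031). That call was lost without the tumour block, at 1.49, and without mouse 2, 3 or 4. Pdgfra, higher in stromal cells in liver, differed by 3.21 ± 0.6, a call lost without mouse 2 or 4, Cxcl5 by 3.18 ± 0.44 and Ackr3 by 2.19 ± 0.11. Whether the tumour cells or the stroma changed between sites was not tested for these genes, nor for Il33 and Cd276. The study had picked Tmem252 and Ceacam1 as higher in liver than in peritoneal tumour cells of this series. Their differences between sites are thus no independent evidence.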

How the data were processed

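Tumour and stromal cells of liver tumours from 4 mice were compared in 8 of 25 mRNA libraries. The authors deposited raw read counts per gene for 24984 genes. Reads had been aligned to the mm9 mouse genome with TopHat2 according to the study's methods, while the submitters' processing notes name FastQC, Bowtie 0.12.2 and the builds mm8 and mm10. The counting program, its strand setting and its annotation were not given in the sources used here, so reads of overlapping or antisense genes and of near-identical copies cannot be told apart. Sample groups came from the labels.

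Genes were kept by filterByExpr (minimum count 10) and tested in edgeR 4.0.16 (R 4.3.3) on the counts with TMM scaling, mouse as a block and the quasi-likelihood test, with p-values adjusted by Benjamini-Hochberg across every gene in the fit. A gene was called at an adjusted p under 0.05 with a log2 fold change above 1 in size. The mouse number in the titles gave the pairing, and the deviations of the 2 libraries of a mouse from their group means correlated at 0.126, 0.314, 0.246 and 0.217. No 2 libraries held identical values. The 4 samples of a group came from separate mice.

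Of 638 listed symbols, 637 matched the table. The members, the gene lists and the pairs were chosen with earlier results of these data known. Gene positions are those of GENCODE M1. Genes were named when they belonged to a list or pair, were among the 10 largest log2 fold changes in a direction (called, no overlap, at least 100 counts in all and the lower group above 3 counts), among the 10 with the highest CPM beyond a log2 fold change of 3, or among the 5 largest differences between sites in a direction. Clec5a, named by that rule, and Met and Csf2ra were picked for their sequences after their values were seen. Some of the genes so named are not reported here. Tested on simulated counts for 14673 genes, the fit called 100% of genes changed by 1.5, 2.5 or 4 on the log2 scale (67, 67 and 66 genes) and 0.00691% of 14473 unchanged genes. No changed gene was at a low level, all changes exceeded the threshold of 1, directions were about balanced and every gene had the same dispersion. The simulation therefore does not cover genes near the floor or the skew of these data to the stromal side. Alternatives were no block, other scalings (RLE, upper quartile, library totals), DESeq2 1.42.0, other filters, unadjusted p-values, all 16 tumour and stroma libraries in 1 fit and each mouse left out. A threshold of 2 on the log2 scale and a minimum of 1 CPM were added after seeing the data.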

Additional observations from a re-analysis of the deposited data

Results flagged for a closer look

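In 13 of 356 groups of 4 libraries, over the 178 genes followed, a single mouse stood far from the other 3, its gap to the nearest value, as a share of the whole range, being above Dixon's critical value. Chance gives about 1 such group in 20, and 3.65% of the groups were found. In tumour cells the share of the range was reached by Gzme at 0.831 (mouse 3, 8.32 CPM against 4.42 to 5.07 CPM), H19 at 0.866 (mouse 3, 0.841 CPM against 0.371 to 0.434 CPM), C1qa at 0.836 (mouse 1, 1.26 CPM against 4.29 to 4.89 CPM), Cd3e at 0.988 (mouse 4, 1.92 CPM against 0.921 to 0.933 CPM), Pdgfrb at 0.89 (mouse 4, 1.49 CPM against 0.76 to 0.84 CPM), Tap1 at 0.837 (mouse 3, 0.319 CPM against 0.619 to 0.677 CPM) and Slc7a11 at 0.865 (mouse 1, 8.14 CPM against 3.09 to 3.77 CPM). In stromal cells it was reached by Egln3 at 0.847 (mouse 3, 248 CPM against 221 to 225 CPM), Cd74 at 0.928 (mouse 2, 5301 CPM against 7106 to 7247 CPM), Cd3e at 0.929 (mouse 3, 2.44 CPM against 1.4 to 1.47 CPM), Isg15 at 0.852 (mouse 3, 35.4 CPM against 41.7 to 42.8 CPM), Notch1 at 0.841 (mouse 1, 294 CPM against 179.9 to 198 CPM) and Timp2 at 0.838 (mouse 3, 241 CPM against 192 to 199.6 CPM). Mouse 3 gave 7 of the 13, mouse 1 gave 3, mouse 4 gave 2 and mouse 2 gave 1. The liver libraries of mice 1 and 2 shared sequencing lane 1, while those of mouse 3 were in lane 2 and those of mouse 4 in lane 3. For mice 3 and 4, mouse and lane cannot be told apart.

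For 34 of the 178 genes the log2 ratio of tumour cells to stroma differed between liver and peritoneum by the edgeR interaction test, against 6.69% of all genes. Of the 34, 6 were named because their difference between sites was among the largest, so that the share is partly set by the choice. Tmem252 and Ceacam1, also among the 34, had been picked by the study as higher in liver than in peritoneal tumour cells of this series. The choice sets part of their result as well. The ratio was higher in liver for 14 genes, with log2 differences of 8.96 for Col28a1, 6.73 for Xpnpep2, 3.21 for Pdgfra, 3.18 for Cxcl5, 2.66 for Tmem252, 2.55 for Cd3e, 2.19 for Ackr3, 2.15 for Il1rl1, 1.89 for Il33, 1.56 for Ceacam1, 1.56 for Egfr, 1.49 for Egr1, 1.3 for Timp2 and 1.21 for Cd276. It was lower in liver for 20 genes, with log2 differences of -6.75 for Igfbp1, -6.27 for Rab3b, -5.52 for Tal1, -5.33 for Fgb, -3.51 for Mmp8, -3.33 for Ltf, -2.7 for Ngp, -1.94 for Tap1, -1.88 for Slc40a1, -1.5 for Hnf4a, -1.45 for Onecut2, -1.38 for Notch1, -1.3 for Foxa2, -1.17 for Cldn2, -1.17 for Msln, -1.16 for Igf2bp1, -1.08 for Hmga2, -1.02 for Isg15, -1.02 for Krt19 and -1.02 for Tspan8. The neutrophil genes Ngp, Ltf and Mmp8 were among the latter, and a single peritoneal tumour stood apart for them. By library totals, Ngp was at 26.7, 0.0565, 0 and 0.0377 CPM in peritoneal tumour cells and 1386, 10.9, 3.36 and 20.4 CPM in peritoneal stroma of mice 1 to 4, and at 68.8, 229.8, 328 and 301 CPM in liver stroma. Mouse 1 was thus highest in the peritoneum and lowest in the liver stroma, as it was for Ltf, and its peritoneal tumour cell library was the one with more stromal transcripts. Without mouse 1 the difference was -0.54 for Ngp and -2.71 for Ltf, neither of which was called, and -3.54 for Mmp8, which was. Without mouse 2, 16 of the 34 were no longer called, without mouse 3 it was 11, without mouse 4 it was 10 and without mouse 1 it was 5. Only for mouse 2 were the sites in different sequencing lanes, lane 1 for liver and lane 2 for peritoneum. What part the lane had was not tested. The values of Tal1 and Mmp8 (liver tumour cells under the floor) and of Igfbp1 and Fgb (peritoneal stroma under the floor) depend on the prior count of the fit and set no bound.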

How the results depend on the processing

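No alternative reversed a direction among the 178 genes followed: 2275 of 2307 values kept their direction and their side of the threshold, 28 lost the call and 4 gained it. The pairing of the libraries by mouse changed little, since without the replicate block 2399 genes were on the tumour side and 4023 on the stromal side. With RLE size factors the counts were 2192 and 4168, with upper-quartile scaling 2778 and 3848, and with DESeq2 2176 and 4142. Upper-quartile scaling moved the median of all genes to 0.13 and leaving out the filter to -0.16, from 0.01. Leaving out each mouse gave 2342 to 2436 genes higher in tumour cells and 3994 to 4120 in stromal cells. A threshold of 2 on the log2 scale, chosen after seeing the data, left 780 genes on the tumour side, by construction fewer. For the difference between liver and peritoneum, unadjusted p-values gave 734 genes lower in liver. Leaving out each mouse gave 369 to 772 higher and 192 to 336 lower, the lowest without mouse 2 and the highest without mouse 1, and the cause was not tested. Without the block it was 620 and 370, with DESeq2 739 and 452. Pairs with the ligand higher in stromal cells and the receptor in tumour cells numbered 1, or 2 with upper-quartile scaling and with library totals only, and 1 to 2 when leaving out each mouse. Depth limits genes at or under 3 counts in a group, whose fitted log2 values set no bound.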
